A study of Sus scrofa with 21 samples.

Results

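Transcripts of the genes that let a sperm cell bind, fuse with and activate the egg were examined in the testis of 21 boars, 13 Landrace and 8 Duroc, with 1 RNA sequencing library per boar. The gene set was fixed by name and held 9 symbols: IZUMO1, IZUMO2, IZUMO4, SPESP1, TMEM95, SPACA6, DCST1, DCST2 and PLCZ1. Of these, 8 could be matched to a counted gene among the 25880 Ensembl genes of the count tables, and DCST2, for which the gene name table gave no Ensembl identifier, is not analysed here. Boars used for artificial insemination had been chosen for extreme sperm hyperactivity, the vigorous, whip-like tail beating that sperm acquire before fertilization, and testis tissue was frozen after slaughter. No boar was treated, and the labels give no age at slaughter. In contrast (i), 4 Landrace boars whose fresh semen (day 0) showed high hyperactivity (L5, L6, L7 and L8) were compared with 4 boars whose fresh semen showed little of it (L1, L2, L3 and L4). In contrast (iii), 3 Landrace boars labelled high for the change of hyperactivity during 96 h of semen storage (L7, L13 and L15) were compared with 4 boars labelled low (L2, L9, L10 and L12). Boars L2 and L7 belong to both contrasts, so the contrasts are not independent. In Duroc, 5 boars carried the label high (D1 to D5) and 3 the label low (D6, D7 and D9). The study's own list of boars places Duroc animals of the same names in other groups, and the deposited labels were used here.

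Fusion of the gametes follows the acrosome reaction, when the contents of the acrosomal vesicle are released and membrane proteins hidden inside it become exposed on the sperm head. IZUMO1 is the sperm ligand that docks on the egg receptor JUNO, and TMEM95, SPACA6, DCST1 and DCST2 are further sperm membrane proteins without which mouse sperm bind the egg but fail to fuse. IZUMO2 and IZUMO4 are relatives of IZUMO1, SPESP1 is a protein of the equatorial segment where fusion begins, and PLCZ1 is the phospholipase that sperm deliver into the egg to start its calcium oscillations. These genes are mainly transcribed in spermatids, the haploid cells that build the acrosome and the tail, and their messengers are measured here in whole testis tissue rather than in sperm.

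By the RefSeq annotation of Sscrofa11.1, in which each gene was found by its symbol, IZUMO1 spans chr6:54072607-54076319 and IZUMO2 chr6:55059627-55069937, so that both lie on chromosome 6. IZUMO4 spans chr2:76472227-76475227, TMEM95 chr12:52701119-52704121 and SPESP1 chr1:166818174-166839717. DCST1 spans chr4:94748430-94768322, and its neighbour there is DCST2, at chr4:94768533-94781482. PLCZ1 spans chr5:54257709-54452557, and the span of CAPZA3, a spermatid actin-capping gene, lies across it. RefSeq gave no span for SPACA6 by its symbol.

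Each library held 47988011 to 97059970 counted reads in Landrace and 41358671 to 125576407 in Duroc, and no 2 libraries of a group agreed within sampling noise. Levels are given as CPM, the read count relative to the library total, adjusted with the TMM factors of edgeR, which correct for differences in composition between libraries. They take no account of gene length, so they are compared between boars and not between genes. Of the 8 matched genes, 7 were above 1 CPM in every boar, and SPACA6 was not. Testis identity was checked on marker genes. Summed over 13 measured genes of elongating spermatids, among them PRM1 and TNP1, the level was between 8518 CPM in L13 and 21142 CPM in L5, and over the measured Sertoli cell genes, among them CLU, CLDN11 and SOX9, it was between 743.9 CPM and 1837 CPM, with AMH alone of that list at 0 in all 21 libraries.

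The members differed in how much they varied from boar to boar. IZUMO2 varied least, from 6.34 CPM in L13 through a median of 8.87 CPM to 10.6 CPM in L5, a coefficient of variation (SD over mean) of 13.6% over the 21 boars. IZUMO1, the ligand of the egg receptor, was between 19.5 CPM in L13 and 44.2 CPM in D6, with a median of 32.7 CPM. SPESP1 was between 251.5 CPM in D1 and 581 CPM in L8 around a median of 385 CPM. PLCZ1 was between 488 CPM in L3 and 1229 CPM in D2 around a median of 655 CPM. The remaining members had wider or similar relative ranges, with coefficients of variation of 25.3% for IZUMO4, 33.2% for TMEM95, 38.0% for DCST1 and 45.5% for SPACA6, against 19.4% for IZUMO1, 21.3% for SPESP1 and 26.6% for PLCZ1. For SPACA6, each value rests on only 18 to 133 reads, compared with 126 to 509 for TMEM95, the next lowest in reads.

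**Figure D1:**
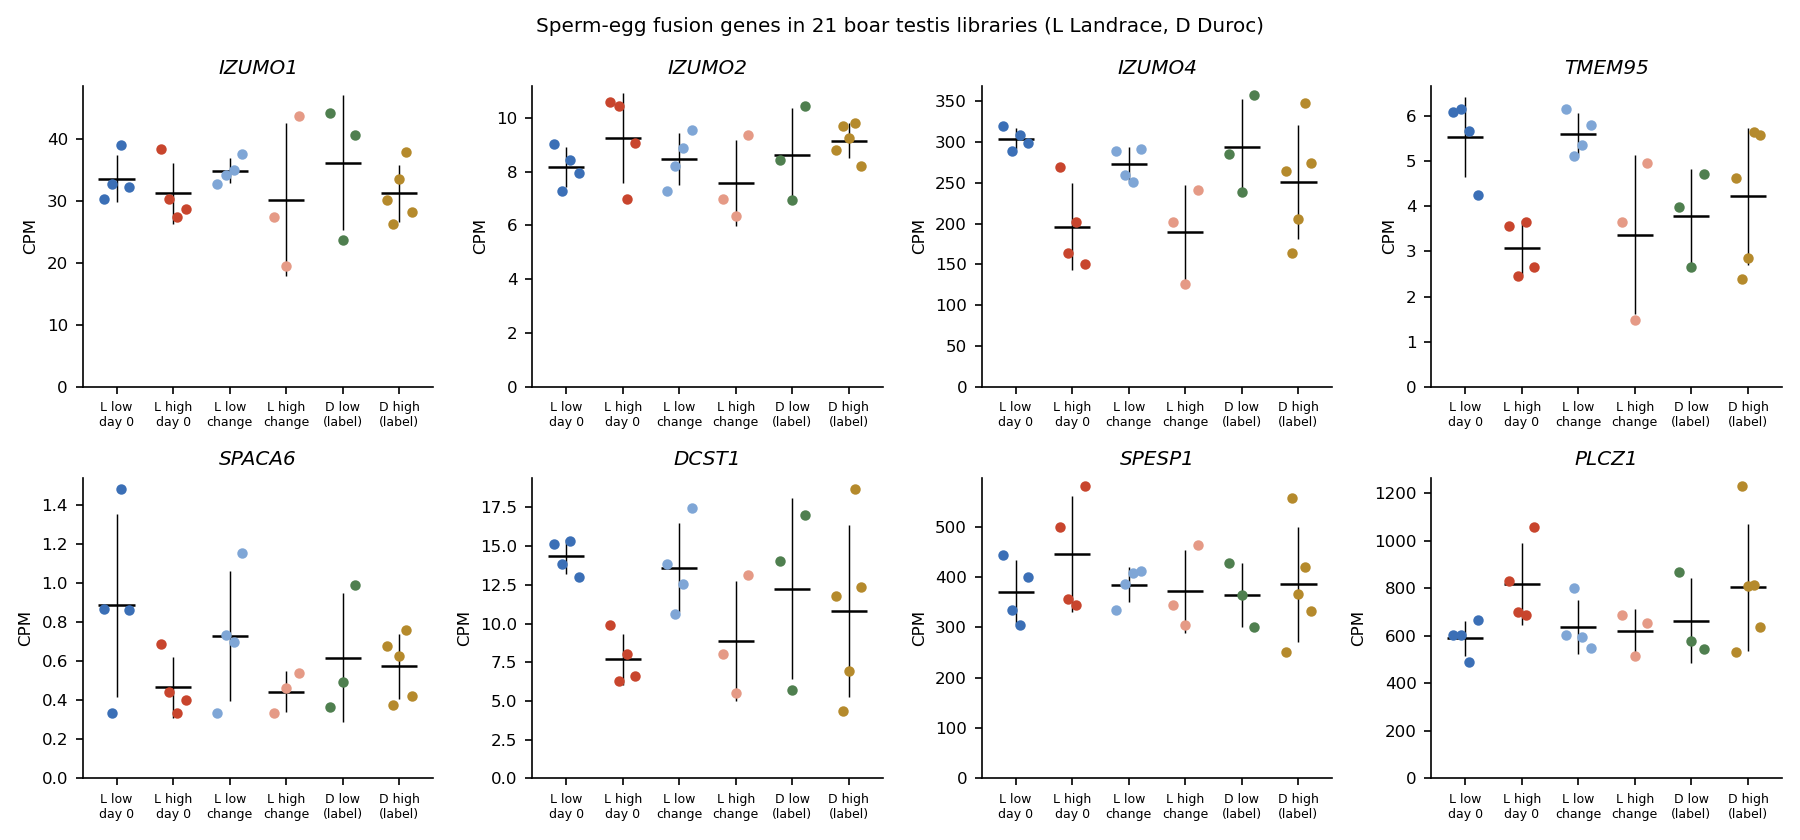
Level of each gene in CPM (vertical axis, from 0) in each boar, by group; every point is 1 library, horizontal bars are group means and vertical lines 1 SD. L is Landrace, D is Duroc, and boars L2 and L7 appear in both the day 0 and the change groups. In contrast (i) all 4 high boars lie below all 4 low boars for IZUMO4, TMEM95 and DCST1, and above them for PLCZ1.

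Contrast (i) asked whether testis expression differs between Landrace boars with high and low hyperactivity at day 0. Transcripts of 3 of the 7 tested genes, IZUMO4, TMEM95 and DCST1, were lower in the high boars, at 61.7%, 53.2% and 51.2% of the level of the low boars, and none was higher by the test. Over all 12979 genes tested, 15.8% were lower in the high boars, 4.82% were higher and 20.7% differed in either direction at an adjusted p under 0.05 (edgeR quasi-likelihood test with Benjamini-Hochberg adjustment). The groups did not overlap for 4 of the 7 members, compared with 31.4% of all genes tested. The members' median log2 fold change, high minus low, was -0.18, and the median over all genes was 0.035.

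IZUMO4 was measured at 319, 289, 308 and 298 CPM in the low boars L1, L2, L3 and L4. In the high boars L5, L6, L7 and L8 it was measured at 269.7, 164, 201 and 150.1 CPM. The low boars lay close together and every high boar was below the lowest of them. The high boars averaged 196 ± 53.6 CPM (SD, n = 4), whereas the low boars averaged 304 ± 13.02 CPM (SD, n = 4). This gave a log2 fold change of -0.70 ± 0.18 (SE) and an adjusted p of 0.0249.

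TMEM95, a membrane protein of the acrosome needed for fusion in mice, was at 6.09, 6.15, 5.66 and 4.26 CPM in L1, L2, L3 and L4. The high boars L5, L6, L7 and L8 had 3.57, 2.46, 3.65 and 2.66 CPM. The gap between the groups lay between L4 and L7, and no boar crossed it. The log2 fold change was -0.91 ± 0.24 (SE), with an adjusted p of 0.0272. These values rest on 173 to 330 reads per library in the high boars and 257 to 509 reads in the low boars.

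DCST1, which encodes a membrane protein that works together with DCST2 in fusion, was at 15.1, 13.9, 15.4 and 12.98 CPM in L1, L2, L3 and L4. The high boars L5, L6, L7 and L8 had 9.89, 6.29, 8.05 and 6.59 CPM. Again the lowest of the low boars was above the highest of the high boars. The means were 7.71 ± 1.65 CPM (SD, n = 4) and 14.3 ± 1.12 CPM (SD, n = 4), a log2 fold change of -0.96 ± 0.20 (SE) with an adjusted p of 0.0208, a value it shares with the other genes at the top of contrast (i). For each of IZUMO4, TMEM95 and DCST1, the two-sided exact permutation test gave p = 0.0286, the smallest that 4 boars against 4 allow.

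PLCZ1, the egg activator, did not pass the test, although its groups did not overlap either. It was at 602, 604, 488 and 665 CPM in L1, L2, L3 and L4, and at 831, 699, 688.5 and 1058 CPM in L5, L6, L7 and L8. Here the high boars were the upper group. The means were 819 ± 172 CPM (SD, n = 4) in the high boars and 589.8 ± 73.7 CPM (SD, n = 4) in the low boars. The log2 fold change was 0.40 ± 0.16 (SE) with an adjusted p of 0.0798 (exact permutation p = 0.0286), and with DESeq2 the adjusted p was 0.0499.

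For IZUMO1, IZUMO2 and SPESP1 the groups overlapped. IZUMO1 was at 31.2 ± 4.96 CPM (SD, n = 4) in the high boars and 33.5 ± 3.81 CPM (SD, n = 4) in the low boars, with a log2 fold change of -0.18 ± 0.16 (SE) and an adjusted p of 0.398. IZUMO2 had a log2 fold change of 0.11 ± 0.19 (SE, adjusted p = 0.676), whose sign turned to -0.054 when libraries were scaled by their totals alone. SPESP1 averaged 445 ± 115 CPM in the high boars and 370.2 ± 62.9 CPM in the low boars (SD, n = 4 each), with a log2 fold change of 0.19 ± 0.18 (SE) and an adjusted p of 0.422. L8 was the highest of all 21 boars in SPESP1. SPACA6 was below the limit of 1 CPM in at least 4 libraries and entered no main test. It was at 0.865, 0.335, 1.48 and 0.862 CPM in L1, L2, L3 and L4, and at 0.687, 0.441, 0.332 and 0.401 CPM in L5, L6, L7 and L8. Its groups overlapped through L2, and the exact permutation test gave p = 0.171. Without a filter on low counts, its log2 fold change was -0.95 ± 0.45 (SE) with an adjusted p of 0.149.

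The 3 calls depended on single boars, and that of TMEM95 also on the boars fitted together, since with all Landrace boars in 1 fit its adjusted p was 0.0635. When each boar was left out in turn, the log2 fold changes of IZUMO4, TMEM95 and DCST1 stayed below 0, from -0.87 to -0.58, from -1.07 to -0.81 and from -1.09 to -0.88. Without L3 or without L6, however, none of the 3 genes passed, with adjusted p-values of 0.0529 and 0.0611 for IZUMO4, 0.0581 and 0.0693 for TMEM95, and 0.0504 and 0.0532 for DCST1. In both of those fits only 1 gene of the whole table passed. Without L1, IZUMO4 (adjusted p = 0.0557) and TMEM95 (0.0648) were lost, and without L8, TMEM95 (0.0546) was lost.

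**Figure D2:**
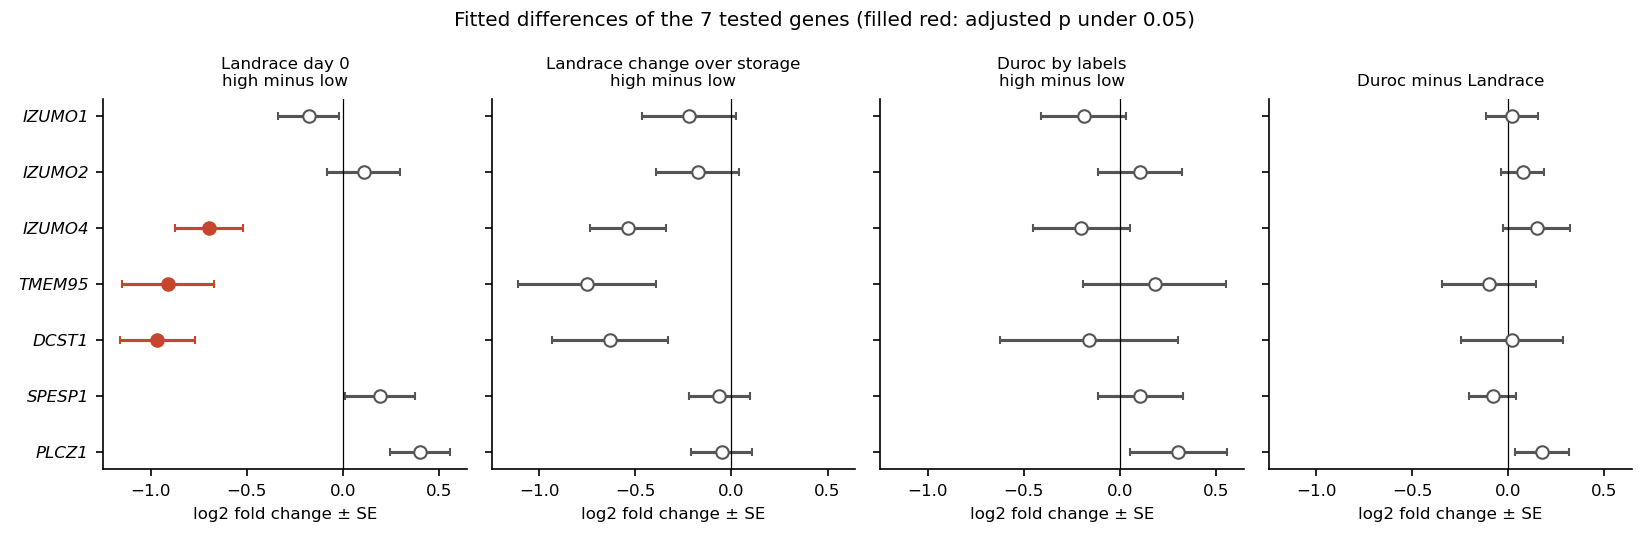
Log2 fold change (horizontal axis, with 1 SE) of the 7 tested genes in the 4 comparisons, from edgeR; filled red points have an adjusted p under 0.05. IZUMO4, TMEM95 and DCST1 in the Landrace day 0 comparison are the only filled points, at -0.70, -0.91 and -0.96.

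The boars of contrast (i) also differed in how the libraries were scaled. The TMM factors were 0.822 to 0.986 in the high boars and 1.03 to 1.18 in the low boars, without overlap. Scaled by library totals alone, a setting chosen after seeing the data, the median log2 fold change of all genes moved to -0.12, and 2458 genes were lower and 104 higher in the high boars, a lower share of 95.9% against 76.7% with TMM. DESeq2 gave 2464 lower and 1458 higher genes, a lower share of 62.8%. The log2 fold changes of IZUMO4, TMEM95 and DCST1 were -0.85, -1.07 and -1.13 with library totals alone, and -0.67, -0.89 and -0.94 with relative log expression factors. PLCZ1 was at 0.24 and 0.43 with these factors.

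Because a ratio of 2 genes within a library needs no scaling, other members were also expressed per 1000 counts of PLCZ1, a measure added after seeing the data. IZUMO4 was at 142 to 325 counts per 1000 PLCZ1 counts in the 4 high boars and 449 to 631 in the 4 low boars. TMEM95 was at 2.51 to 5.31 against 6.41 to 11.6, and DCST1 at 6.23 to 11.9 against 19.5 to 31.5. None of these ranges overlapped, and for DCST1 the median was 10.3 in the high boars and 24.1 in the low boars. IZUMO1 was also separated, though narrowly, at 27.1 to 46.2 in the high boars and 48.4 to 80.0 in the low boars. SPESP1 overlapped, at 500.3 to 601 against 554 to 735. The ratios take in the difference of PLCZ1 itself and carry no separate test.

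**Figure D3:**
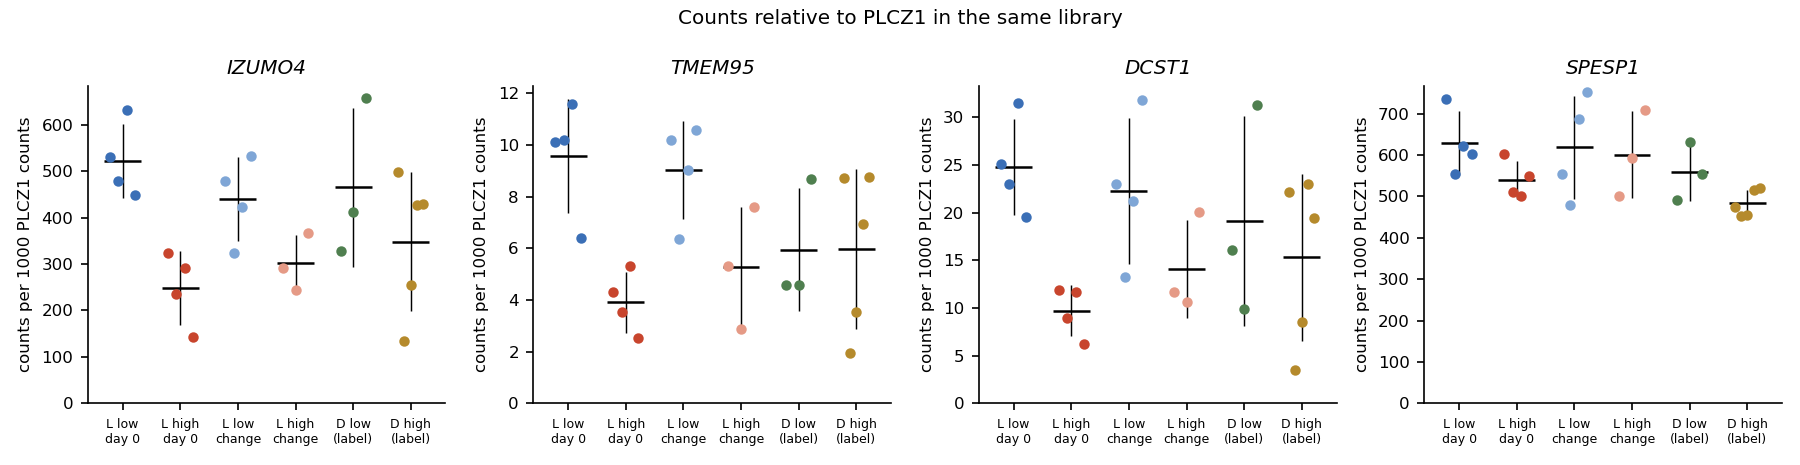
Counts of IZUMO4, TMEM95, DCST1 and SPESP1 per 1000 counts of PLCZ1 in the same library (vertical axis, from 0), by group; points are boars, horizontal bars means and vertical lines 1 SD. The day 0 groups of Landrace do not overlap for the first 3 genes (for DCST1, 6.23 to 11.9 in the high and 19.5 to 31.5 in the low boars) and overlap for SPESP1.

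Marker genes of other stages and cell types were also called in contrast (i), where 15.8% of all genes tested were lower and 4.82% higher, and where only 1 gene of the whole table passed without L3 or without L6. Of 13 tested genes of elongating spermatids, 5 were lower in the high boars and none higher (PRM1, TNP2, ODF2, GAPDHS and TSSK6), while the summed level of the list overlapped, at 15386 to 21142 CPM in the high boars and 13753 to 19349 CPM in the low boars. Of 8 round spermatid genes, ACR and ACRBP were lower, although the list's median log2 fold change was 0.33. The summed level of the pachytene spermatocyte genes, which act in meiosis before the spermatid stage, was 1640 to 2409 CPM in the high boars and 1114 to 1509 CPM in the low boars, and 1 of 9 was called higher. Of 5 peritubular myoid genes, 3 were lower, with sums of 18.3 to 64.6 CPM against 50.9 to 109 CPM. Among the other lists, 1 of 6 spermatogonial genes was higher, and none of 10 Sertoli, 6 Leydig, 4 endothelial and 3 macrophage genes was called in either direction. The part of these differences in the levels of IZUMO4, TMEM95 and DCST1 was not tested, and in whole tissue fewer spermatids and less RNA per spermatid cannot be told apart.

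Contrast (iii) compared boars with a high and a low change in hyperactivity over storage of the semen. No member passed the test, and all 7 tested members had a log2 fold change below 0, with a median of -0.22 where the median of all genes was 0.0035. Of 12824 genes tested, 0 passed (0%), with a smallest adjusted p of 0.240, and 2540 genes (19.8%) had an unadjusted p under 0.05. DESeq2 called 116 genes and the likelihood ratio test of edgeR 64, no member among them. One member, IZUMO4, had an unadjusted p under 0.05, and for 2 members, IZUMO4 and TMEM95, the groups did not overlap, compared with 16.4% of all genes tested. Per 1000 counts of PLCZ1, however, the groups overlapped for both, at 245 to 367 in the high and 323 to 533 in the low boars for IZUMO4 and at 2.89 to 7.59 and 6.38 to 10.6 for TMEM95.

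IZUMO4 was at 201, 125.8 and 240.5 CPM in the high boars L7, L13 and L15. The low boars L2, L9, L10 and L12 had 289, 259, 251 and 292 CPM. L15 came closest to the low group without reaching it. The log2 fold change was -0.54 ± 0.20 (SE), with p = 0.0207 before and 0.240 after adjustment by edgeR, and the exact permutation p of 0.0286 is the smallest that 3 boars against 4 allow.

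TMEM95 was at 3.65, 1.49 and 4.97 CPM in L7, L13 and L15, and at 6.15, 5.12, 5.36 and 5.79 CPM in L2, L9, L10 and L12. Its log2 fold change was -0.75 ± 0.36 (SE), with an adjusted p of 0.266. DCST1 was at 8.05, 5.49 and 13.1 CPM in L7, L13 and L15 and at 13.9, 10.6, 12.6 and 17.4 CPM in L2, L9, L10 and L12. For DCST1 the groups overlapped, since L15 was above L9 and L10, and the log2 fold change was -0.63 ± 0.30 (SE) with an adjusted p of 0.266. The 4 other tested members had smaller differences, of -0.22 for IZUMO1, -0.18 for IZUMO2, -0.063 for SPESP1 and -0.051 for PLCZ1, with adjusted p-values from 0.603 to 0.863. SPACA6 was at 0.332 to 0.539 CPM in the high boars and 0.335 to 1.15 CPM in the low boars.

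Boar L13 was the lowest of all 21 boars for IZUMO1, IZUMO2, IZUMO4 and TMEM95 and was among the 3 lowest for 6 of the 8 members. Its summed level of elongating spermatid genes, 8518 CPM, was also the lowest, followed by L15 with 11844 CPM. In contrast (iii) all 13 genes of that list had a log2 fold change below 0 (median -0.58), although none passed, with sums of 8518 to 16801 CPM in the high boars and 16146 to 20510 CPM in the low boars. Among the lists of somatic cells, values above 0 were found in 6 of 6 Leydig (median 0.59) and 9 of 10 Sertoli genes (0.23). They were also found in 4 of 4 endothelial (0.26) and 3 of 3 macrophage genes (0.45). The peritubular myoid genes, also somatic, were divided, with 2 of 5 below 0 and a median of 0.028. None of these somatic genes passed. L13 had the highest summed level of macrophage genes of all 21 boars, at 219.9 CPM. The part of these cell markers in the members' values was not tested. Without L13, the log2 fold changes were -0.31 for IZUMO4, -0.39 for TMEM95 and -0.37 for DCST1, and those of IZUMO1 (0.025), SPESP1 (0.069) and PLCZ1 (0.076) changed sign. Without the 2 boars shared with contrast (i), the values were -0.54 for IZUMO4, -0.76 for TMEM95 and -0.55 for DCST1, with adjusted p-values of 0.338, 0.420 and 0.476.

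In Duroc, no member passed the test between boars labelled high and low. The groups overlapped for every one of the 8 genes, whereas they did not overlap for 1.3% of the 13043 genes tested. The test called 0 of these genes (0%), 158 had an unadjusted p under 0.05, and DESeq2 called 0. The members' log2 fold changes were between -0.20 for IZUMO4 and 0.30 for PLCZ1, all with an adjusted p of 1.

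The Duroc boars nevertheless differed widely among themselves, inside both labels. DCST1 was at 11.8, 4.36, 6.91, 18.7 and 12.4 CPM in D1, D2, D3, D4 and D5, labelled high, and at 14.0, 5.73 and 17.0 CPM in D6, D7 and D9, labelled low. Both the lowest and the highest of the 21 boars for DCST1 were thus Duroc boars with the label high. IZUMO4 was at 264, 164, 205, 347 and 274 CPM in D1, D2, D3, D4 and D5, and at 285, 238 and 357 CPM in D6, D7 and D9. TMEM95 was at 4.62, 2.40, 2.85, 5.64 and 5.59 CPM in D1 to D5, and at 3.98, 2.65 and 4.73 CPM in D6, D7 and D9. D2, the lowest Duroc boar for DCST1, IZUMO4 and TMEM95, was the highest of all boars for PLCZ1, at 1229 CPM. PLCZ1 was otherwise between 531 CPM in D1 and 869.9 CPM in D6 among the Duroc boars.

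Whether the difference between high and low boars was itself different in Landrace at day 0 and in Duroc was tested with an interaction term. Of 12920 genes, 0 passed in edgeR and 1946 had an unadjusted p under 0.05. The high minus low difference in Landrace minus that in Duroc was -1.08 ± 0.45 (SE) log2 units for TMEM95. In edgeR its p was 0.0271 before and 0.329 after adjustment. That adjusted p is the smallest in the fit, but TMEM95 shares it with other genes whose unadjusted p was smaller. For DCST1 the difference was -0.79 ± 0.55 (SE, adjusted p = 0.423), and for IZUMO4 -0.48 ± 0.33 (SE, adjusted p = 0.425). The calls in Landrace and the lack of calls in Duroc are therefore not shown to differ from each other.

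Between the breeds, none of the 7 tested members passed the test. Duroc boars had 33.1 ± 7.25 CPM (SD, n = 8) of IZUMO1 and Landrace boars 33.0 ± 6.16 CPM (SD, n = 13). DCST1 was at 11.4 ± 5.28 CPM (SD, n = 8) in Duroc and 11.3 ± 3.84 CPM (SD, n = 13) in Landrace. The log2 fold changes, Duroc minus Landrace, were between -0.10 for TMEM95 and 0.17 for PLCZ1, with adjusted p-values from 0.824 to 0.998 and standard errors between 0.11 for IZUMO2 and 0.26 for DCST1. Of 13126 genes tested between the breeds, 2.88% passed, 1.53% lower and 1.35% higher in Duroc. SPACA6 was at 0.589 ± 0.218 CPM (SD, n = 8) in Duroc and 0.691 ± 0.338 CPM (SD, n = 13) in Landrace (exact permutation p = 0.550).

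Across boars, the members fell into sets that varied together. Over the 21 libraries, Pearson's r of log2 CPM was 0.895 between DCST1 and TMEM95, 0.886 between DCST1 and IZUMO4 and 0.868 between IZUMO4 and TMEM95. These were the 3 of 28 pairs above 0.8. Within the breeds the same pairs had an r of 0.93, 0.94 and 0.92 in the 13 Landrace boars and 0.93, 0.94 and 0.84 in the 8 Duroc boars. IZUMO1 came next, with an r of 0.72 to DCST1, 0.67 to IZUMO4 and 0.65 to TMEM95. SPESP1 and PLCZ1 formed another pair, with an r of 0.768 over all boars, 0.733 in Landrace and 0.927 in Duroc. PLCZ1 had an r of -0.418 with DCST1, -0.337 with IZUMO4 and -0.308 with TMEM95. All points share the library and its scaling factor, and r with the TMM factor was -0.892 for PLCZ1 and -0.840 for SPESP1, against 0.515 for DCST1, 0.501 for IZUMO4 and 0.448 for TMEM95. With the total count per library, r was -0.657 for IZUMO4, -0.652 for DCST1 and -0.574 for TMEM95.

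**Figure D4:**
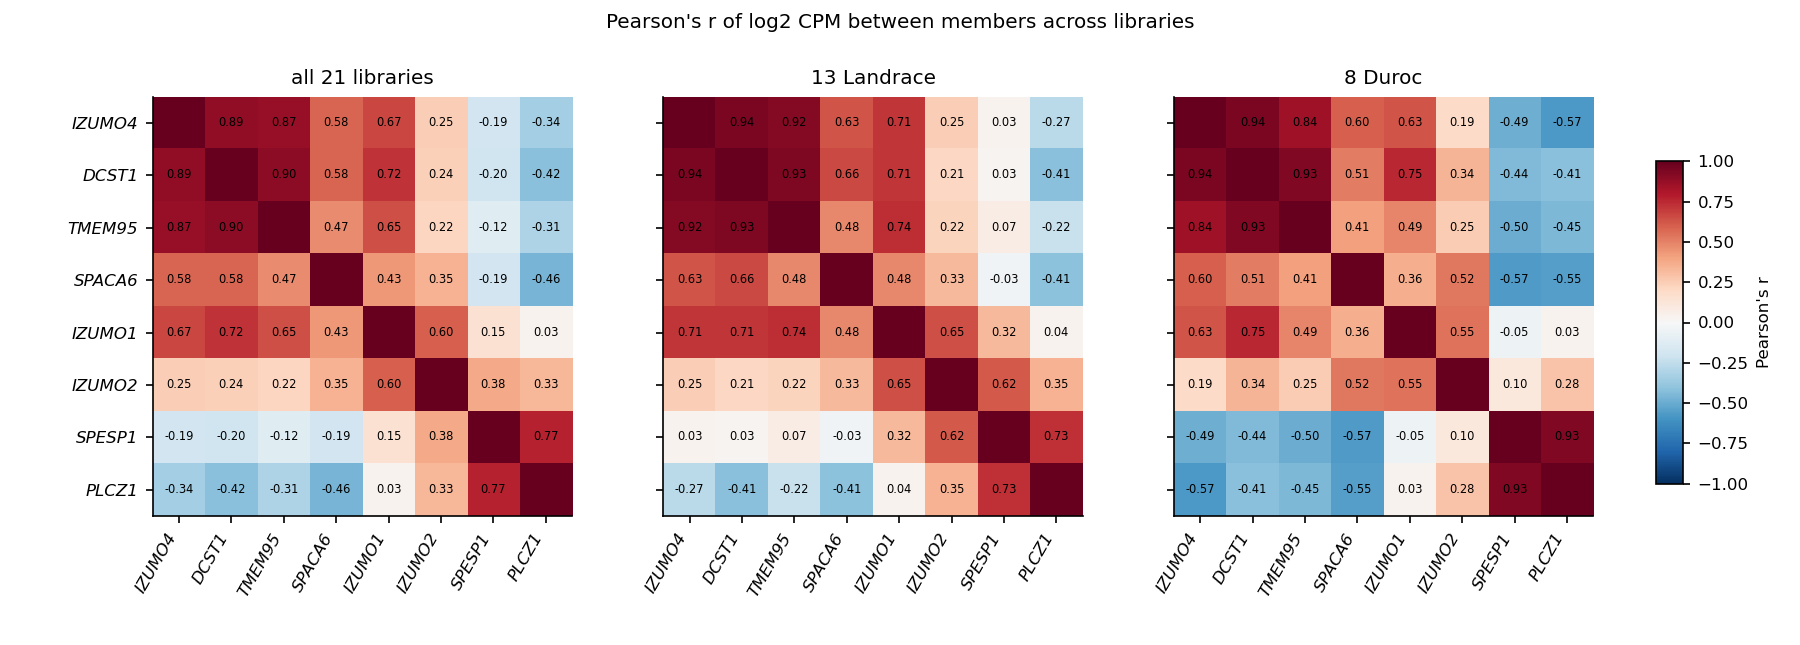
Pearson's r of log2 CPM between each pair of members over all 21 libraries, the 13 Landrace and the 8 Duroc libraries (red positive, blue negative, scale from -1 to 1). IZUMO4, DCST1 and TMEM95 form a block of high values in each panel, and SPESP1 and PLCZ1 another pair (0.77 over all libraries).

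The genes whose levels followed each member most closely over the 21 boars were looked up among the genes tested between the breeds. For IZUMO4 they were CATSPERG (r = 0.976), a subunit of the sperm calcium channel, ATP8B3 (0.972), a flippase of the acrosome membrane, and MROH1 (0.969). For DCST1 they were PDE4A (0.962), which degrades cyclic AMP, FOXM1 (0.948) and MFGE8 (0.947). For TMEM95 they were CCDC136 (0.950), GIT1 (0.939) and RANBP1 (0.939). PLCZ1 was followed by other genes, TMCO5A (0.959), CCDC54 (0.949) and ASB17 (0.948). SPESP1 was followed by MPC2 (0.945), a subunit of the mitochondrial pyruvate carrier, SRP9 (0.943) and the unnamed gene ENSSSCG00000016224 (0.939). The nearest genes of IZUMO1 were ENSSSCG00000038331 (0.892), SEC14L1 (0.890) and ENSSSCG00000011291 (0.885). IZUMO2 had no neighbour above 0.8, the closest being LRRTM2 (0.796), LDLRAD4 (0.778) and ENSSSCG00000035322 (0.729). For SPACA6 they were LENG8 (0.865), ASB10 (0.856) and CELF3 (0.850). The median r over all these genes was between -0.12 for IZUMO4 and 0.030 for PLCZ1.

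Marker lists were also scored in each boar by the mean log2 CPM of their genes, which weights every gene alike, unlike the summed level. For the elongating spermatid genes this mean had an r of 0.764 with TMEM95, 0.761 with IZUMO4 and 0.611 with DCST1 over the 21 boars. Its r was 0.135 with PLCZ1 and 0.180 with SPESP1. With the mean of the round spermatid genes the members were closer together. Here r was 0.588 for TMEM95, 0.536 for DCST1, 0.524 for IZUMO4, 0.511 for SPESP1 and 0.212 for PLCZ1. The summed level of that list was highest in L8 (4695 CPM) and D2 (4658 CPM), which were also the highest boars for PLCZ1 (1058 and 1229 CPM). With the mean log2 CPM of the pachytene genes the order of these r values was turned. They were 0.692 for PLCZ1 and 0.489 for SPESP1, and -0.562 for DCST1, -0.425 for IZUMO4 and -0.406 for TMEM95. With the peritubular myoid genes r was -0.769 for both PLCZ1 and SPESP1 and between 0.57 and 0.60 for IZUMO4, TMEM95 and DCST1. IZUMO1 and IZUMO2 were most strongly related to the Sertoli cell genes, with an r of -0.646 and -0.551. These r values describe 21 libraries that share the same scaling, and they hold for the means of log2 CPM, not for the summed levels.

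Other genes of gamete interaction were followed on a list of 24, of which 19 were matched and 16 tested. Among those tested, ACR, ACRBP and SPACA1 are also on the round spermatid list, so the calls of ACR and ACRBP appear under both lists. In contrast (i), 7 of the 16 were lower in the high boars and none higher, beside 15.8% lower and 4.82% higher over all genes tested, with a median log2 fold change of -0.21 over the list and 0.035 over all genes. The 3 with the smallest p were ACR, the acrosomal protease acrosin, at 104 CPM in the high and 207 CPM in the low boars (log2 fold change -1.05 ± 0.18 SE, adjusted p = 0.0208), SPPL2C, an intramembrane protease of spermatids (-1.36 ± 0.29 SE, adjusted p = 0.0208), and ACRBP, which binds proacrosin (-0.93 ± 0.20 SE, adjusted p = 0.0208). Named after their values were seen, LLCFC1 (-0.75 ± 0.20 SE, adjusted p = 0.0299) and C16orf92 (-0.77 ± 0.25 SE, adjusted p = 0.0462), which are also needed for fusion in mice, were among the 7, with SPACA3 and CD81. Without L3 or without L6, where 1 gene of the whole table passed, at most 1 of these 7 calls could remain. The list was split, since 8 of the 16 had values below 0 and the 8 others, including SPACA1, SPAM1, ZPBP and the IZUMO relative IZUMO3, had values above 0 that did not pass. In contrast (iii), in Duroc and between the breeds, 0 of the 16 passed. In contrast (iii), the values were -0.71 for LLCFC1, -1.0 for SPPL2C, -0.66 for ACR and -0.64 for ACRBP, with adjusted p-values of 0.240 to 0.245.

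**Figure D5:**
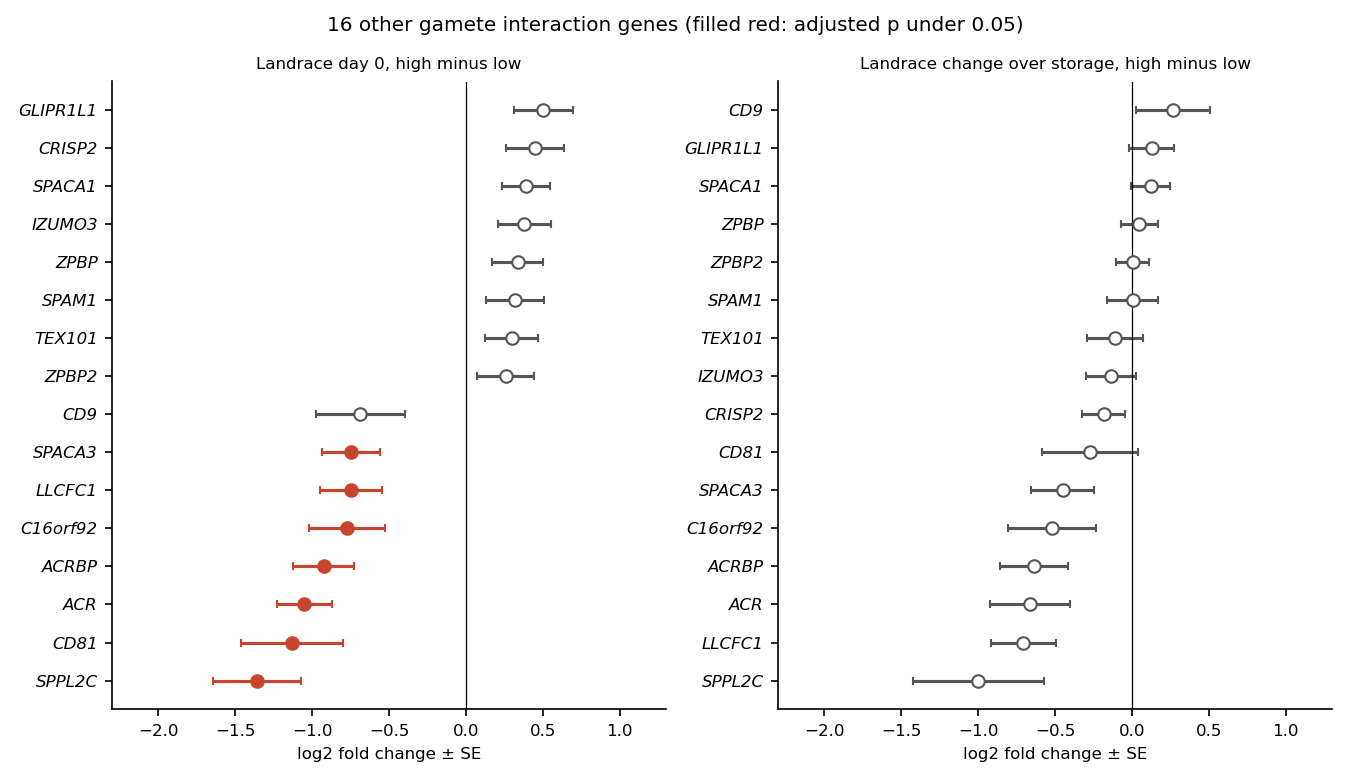
Log2 fold change (horizontal axis, with 1 SE) of the 16 tested other gamete interaction genes in contrasts (i) and (iii), each ordered by value; filled red points have an adjusted p under 0.05. In contrast (i) the 7 filled points lie below 0 and 8 genes lie above 0 without passing; in contrast (iii) no point is filled.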

How the data were processed

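The authors extracted testis RNA, made stranded mRNA libraries, trimmed the single reads with Trimmomatic 0.36, aligned them to Sscrofa11.1 with STAR and counted them per Ensembl gene with HTSeq in the reverse stranded mode. The deposited values are raw counts per gene, without normalization. Groups were taken from the labels. Genes reaching 1 CPM in 4 or more libraries (8 for the breeds) were tested on the boars of each comparison with the quasi-likelihood test of edgeR 4.0.16 in R 4.3.3, after TMM scaling, at a Benjamini-Hochberg adjusted p of 0.05. DESeq2 1.42.0 was an alternative. Displayed CPM were scaled over all 21 libraries, and log2 CPM used a prior count of 2. Single members were compared by two-sided exact permutation tests. The steps were tested on simulated data. Symbols came from a gene name table that named 14857 identifiers. Reads counted on genes that overlap or share sequence with others, such as CAPZA3 at PLCZ1, may be lost or shared. All 9 members were named, with the 3 genes most correlated with each and, of the other gamete interaction genes, up to 3 per direction with the smallest p. Defining genes of the marker lists were named where a list's level was given. Members and lists were chosen with earlier results of these data known. No sequences were used here.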

Additional observations from a re-analysis of the deposited data

How the results depend on the processing

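Of 532 alternative values of the members' log2 fold changes, 496 kept their direction and their side of the threshold, 10 kept only the direction, 1 newly passed and 25 changed sign; in contrast (i), where members were called, the only change of sign was that of IZUMO2. In contrast (i), leaving out 1 boar gave 1 to 3764 genes and 0 to 3 members called (966 genes and 1 member without L1, 1481 genes without L4, 1228 genes without L8, 1 gene and 0 members without L3 or L6), and with all Landrace boars in 1 fit TMEM95 was lost (adjusted p = 0.0635). Library totals alone turned IZUMO2 in contrast (i) to -0.054. In contrast (iii), the number of genes called was 64 by the likelihood ratio test, 116 by DESeq2, 1 with no filter, 1 with edgeR's own filter and 0 to 1 when 1 boar was left out. There, leave-one-out values were -0.59 to 0.025 for IZUMO1, -0.26 to 0.069 for SPESP1 and -0.13 to 0.076 for PLCZ1. In Duroc, leaving out 1 boar gave 0 to 2 genes called (2 without D9) and values of -0.041 to 0.32 for IZUMO2, -0.34 to 0.025 for IZUMO4, -0.052 to 0.20 for SPESP1, -0.032 to 0.43 for TMEM95 and -0.51 to 0.22 for DCST1. Between the breeds, the label as a covariate gave 230 genes called and turned TMEM95 to 0.053, and leave-one-out values were -0.041 to 0.081 for IZUMO1 and -0.12 to 0.14 for DCST1. The cause of these changes was not tested. With Spearman's rho in place of Pearson's r, 2 pairs of members were above 0.8 in place of 3. No paired analysis was possible because each library is a different boar and the boar numbers name animals only. Depth limits mainly SPACA6, with 18 to 133 reads per library.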

Other observations

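Among the other gamete interaction genes, CD9, a tetraspanin known best from the egg surface, had the smallest unadjusted p in Duroc. It was at 10.3 CPM in the boars labelled high and 4.92 CPM in those labelled low, with a log2 fold change of 1.09 ± 0.27 (SE), and an adjusted p of 1 by edgeR. Its value was -0.69 ± 0.29 (SE) in contrast (i), with an adjusted p of 0.0947. CD9 was named after its values were seen.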
